A study of Mus musculus with 13 samples.

Results

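The genes described here code for iron-dependent oxygenases that use 2-oxoglutarate as a cosubstrate, most of which act on DNA, RNA, histones or other proteins. They were listed by symbol, although earlier results of these data were known when they were chosen. They comprise 3 Tet genes, 13 histone demethylases of the Jumonji type and 5 small proteins with a JmjC domain. The others are 9 AlkB genes including Fto, 5 collagen hydroxylases and Phyh. All 36 were present among the 35013 gene symbols of the table, and all 36 were among the 16468 genes that passed the filter on low counts and were tested.

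RNA was collected from kidneys of female mice in 3 groups, namely Spns1 KO (n = 4), WT (n = 5) and FeO (n = 4). Every mouse carried the tamoxifen-inducible Megalin3'Cre-Ert driver, which is expressed from the megalin promoter and was meant to confine recombination to the proximal tubule, and 1 Uprt allele preceded by a floxed stop. Where Cre has acted, the Uprt product places 4-thiouracil into new RNA, and the tagged RNA was biotinylated, captured on streptavidin, selected for poly-A tails and sequenced. Spns1 KO mice had both Spns1 alleles floxed, so that Cre removes exon 3 of this endolysosomal transporter. WT and FeO mice had 1 floxed Spns1 allele by the methods, although their samples are labelled Spns1 WT. FeO mice were given 12 mg of iron (as iron sucrose) on each of 3 days and were studied 1 week after that. Ages were not given in the sources used here.

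Total counts per library ran from 23068023 to 71296474. The counts of the targeted gene Spns1 did not separate the groups, with 39.04, 44.5, 36.6 and 58.95 CPM (counts scaled by library size and TMM factor) in the libraries labelled Spns1 KO 1 to 4 and 57.2, 61.4, 57.6, 39.2 and 62.9 CPM in WT 1 to 5. Spns1 had a log2 fold change of -0.31 (standard error 0.18, edgeR adjusted p = 0.225), and a count over the whole gene says little on the loss of 1 exon. The libraries are therefore named by their labels. The 10 proximal tubule markers were detected in every library, with summed levels of 6441 to 7232 CPM in Spns1 KO, 2804 to 3954 in WT and 1674 to 4045 in FeO. Markers of other kidney cells were detected as well, and none of the 38 markers was at 0 in any library. In FeO, collecting duct markers summed to 395.3 to 1011 CPM, against 210.8 to 368.2 in WT. Podocyte markers summed to 244.5 to 582.4 CPM against 134 to 241.6, and macrophage markers to 71.3 to 92.9 against 45.5 to 54.4. In Spns1 KO the sums of proximal tubule, macrophage and fibroblast markers lay above WT. Other sums of either model overlapped WT. The part of these shifts in the values below was not tested. In such bulk RNA, fewer cells of a type and less RNA per cell cannot be told apart.

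Enzymes of this superfamily hold a ferrous iron ion in their active site and couple the oxidation of their substrate to the decarboxylation of 2-oxoglutarate to succinate. Tet proteins oxidize 5-methylcytosine in DNA, JmjC demethylases remove methyl groups from histone lysines, and AlkB proteins remove alkyl groups from DNA or RNA. Collagen prolyl and lysyl hydroxylases act on procollagen in the endoplasmic reticulum, and phytanoyl-CoA hydroxylase, the product of Phyh, starts the peroxisomal breakdown of phytanic acid. The proximal tubule depends on mitochondrial oxidation of fuels that pass through 2-oxoglutarate, and it takes up filtered proteins that carry iron.

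Of the 36 genes, 30 had at least 1 promoter in the RefSeq-derived table used here (GRCm38.p6). The 250 bases before the start are printed below for 4 genes whose RNA differed between groups, chosen so that their window held no annotated exon (GENCODE M21). Tet2 was lower in FeO, Kdm4a differed between Spns1 KO and FeO, and Alkbh7 and Phyh were higher in both. Capitals mark each ACGTG or GCGTG on either strand (CACGT or CACGC on the other), the core letters of the hypoxia response element, which is bound by the transcription factor that the FIH enzyme (gene Hif1an, among the 36) acts upon.
Tet2, chr3:133544391-133544640, minus strand: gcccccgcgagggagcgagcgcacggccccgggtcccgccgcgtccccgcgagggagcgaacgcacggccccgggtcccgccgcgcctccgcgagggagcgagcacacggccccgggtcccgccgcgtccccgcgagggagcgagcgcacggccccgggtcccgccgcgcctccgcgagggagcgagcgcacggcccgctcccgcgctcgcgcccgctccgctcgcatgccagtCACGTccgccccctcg
Kdm4a, chr4:118180044-118180293, minus strand: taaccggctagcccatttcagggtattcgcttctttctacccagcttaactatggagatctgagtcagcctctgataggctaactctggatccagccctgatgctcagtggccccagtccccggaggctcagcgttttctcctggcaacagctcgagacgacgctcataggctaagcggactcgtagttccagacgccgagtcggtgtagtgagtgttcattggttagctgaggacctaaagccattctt
Alkbh7, chr17:56997089-56997338, plus strand: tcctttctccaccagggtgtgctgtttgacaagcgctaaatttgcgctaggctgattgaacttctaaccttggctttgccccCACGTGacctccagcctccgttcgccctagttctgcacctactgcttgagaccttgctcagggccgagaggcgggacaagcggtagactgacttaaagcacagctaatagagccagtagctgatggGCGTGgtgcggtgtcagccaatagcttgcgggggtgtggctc
Phyh, chr2:4918746-4918995, plus strand: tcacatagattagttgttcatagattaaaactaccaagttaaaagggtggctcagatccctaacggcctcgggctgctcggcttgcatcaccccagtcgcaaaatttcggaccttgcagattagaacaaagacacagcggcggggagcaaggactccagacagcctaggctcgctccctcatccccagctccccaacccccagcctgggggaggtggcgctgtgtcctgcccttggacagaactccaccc
The Tet2 window held 1 match, whose first base lay 16 bases before the start. The Alkbh7 window held ACGTG inside the palindrome CACGTG (an E-box, first base 168 bases before the start) and GCGTG 42 bases before it. No match stood in the Kdm4a and Phyh windows. Over the whole table, ACGTG stood in 16.6% of 32851 promoter windows and in 11 of the 39 windows of the member genes, GCGTG in 28.2% and in 19 of 39, and CACGTG, which contains ACGTG, in 6.02% and in 2 of 39. These matches describe the letters only. For Kdm4a and Alkbh7 the RefSeq start equals the GENCODE start, for Phyh it lies 23 bases upstream of it, and for Tet2 it lies 749 bases inside the longest GENCODE gene span.

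Genes were called higher or lower where edgeR (quasi-likelihood test, Benjamini-Hochberg adjustment) gave an adjusted p under 0.05 with a log2 fold change above 0.5 or below -0.5. Most of the oxygenase genes that were called in FeO were lower than in WT, with the largest decreases in Tet1, Kdm5a and Jmjd1c. In FeO, 20 of the 36 were called lower, where 19.7% of all tested genes were, and 5 were called higher, where 22.4% of all tested genes were. In libraries labelled Spns1 KO, 9 of the 36 were called lower against 7.55% of all tested genes, and 4 were called higher against 14.0%. The median log2 fold change of the 36 was -0.67 in FeO and -0.21 in Spns1 KO, beside medians of -0.01 and -0.05 over all tested genes. Every FeO library lay below every WT library for 18 of the 36 genes (16.4% of all tested genes) and above for 4 (16.9%). For Spns1 KO these counts were 7 below (9.38%) and 4 above (13.1%). Both comparisons use the same 5 WT libraries.

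**Figure D1:**
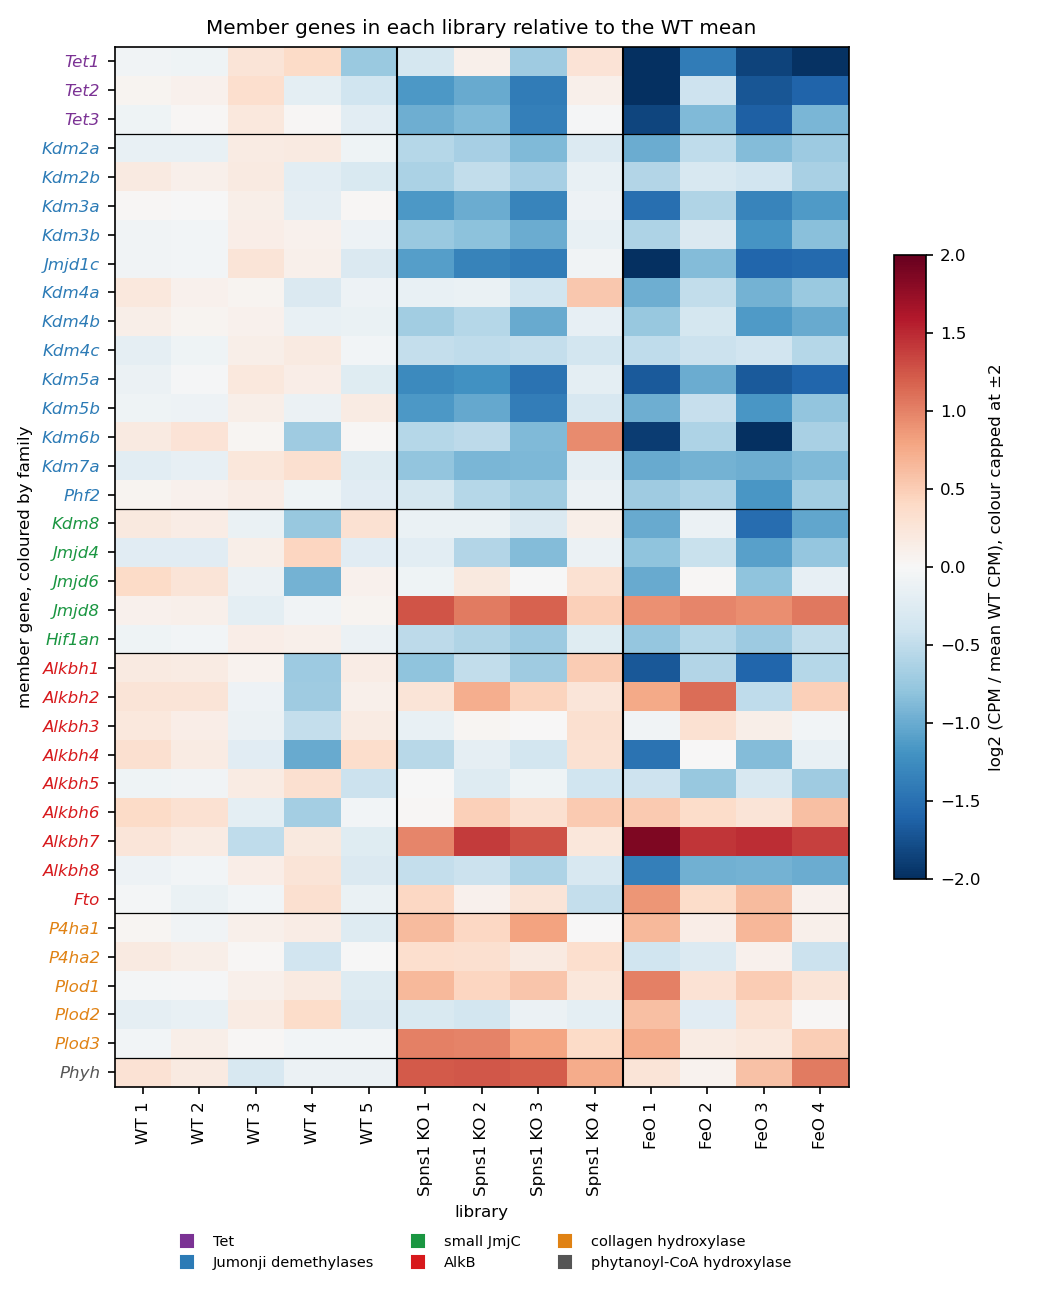
Level of each of the 36 genes (rows, grouped by family) in each of the 13 libraries (columns) as log2 of CPM over the mean WT CPM, with blue below and red above the WT mean. Most Tet and Jumonji cells are blue in the FeO libraries and in the libraries labelled Spns1 KO 1 to 3, Jmjd8 and Alkbh7 are red, and the library labelled Spns1 KO 4 is nearer to WT in most rows.

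The library labelled Spns1 KO 4 stood apart from the other 3 of its group. Over the 13 Jumonji demethylases its median log2 ratio to the WT mean was -0.15, against -0.70, -0.67 and -0.91 in libraries labelled Spns1 KO 1 to 3. It was the highest of its group for all 9 genes called lower, and for 4 of them it reached the WT range, whereas the other 3 libraries lay below every WT library for all 9. Without it, 14 of the 36 genes were called lower and 6 higher. Without the library labelled Spns1 KO 1, 2 or 3, the lower calls fell to 3, 2 and 1, and without WT 3 or WT 4 they were 2 and 5. In FeO the same median ran from -1.16 to -0.51, with FeO 2 nearest to WT, and leaving out any 1 of the 13 libraries left 17 to 21 lower calls.

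Transcript length moved with the direction of change over all genes. The longest GENCODE transcript of the 36 genes ran from 917 bases (Alkbh7) to 14369 (Tet1). All 12 members with a transcript over 6000 bases were called lower in FeO, where 51.2% of all 2240 tested genes of that length were called lower, and their median log2 fold change was -1.11 against -0.61 for all such genes. In Spns1 KO, 7 of these 12 were called lower against 19.3% of all such genes, with medians of -0.65 and -0.37. Among transcripts up to 4500 bases, 4 of 15 members were called higher in each model, against 17.9% of all such genes in Spns1 KO and 29.3% in FeO. Genes over 6000 bases had a median log2 ratio to the WT mean of -0.72 to -0.58 in FeO libraries and of -0.22 to 0.23 in WT libraries. It was -0.36, -0.51 and -0.52 in libraries labelled Spns1 KO 1 to 3 and -0.14 in the library labelled Spns1 KO 4.

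**Figure D2:**
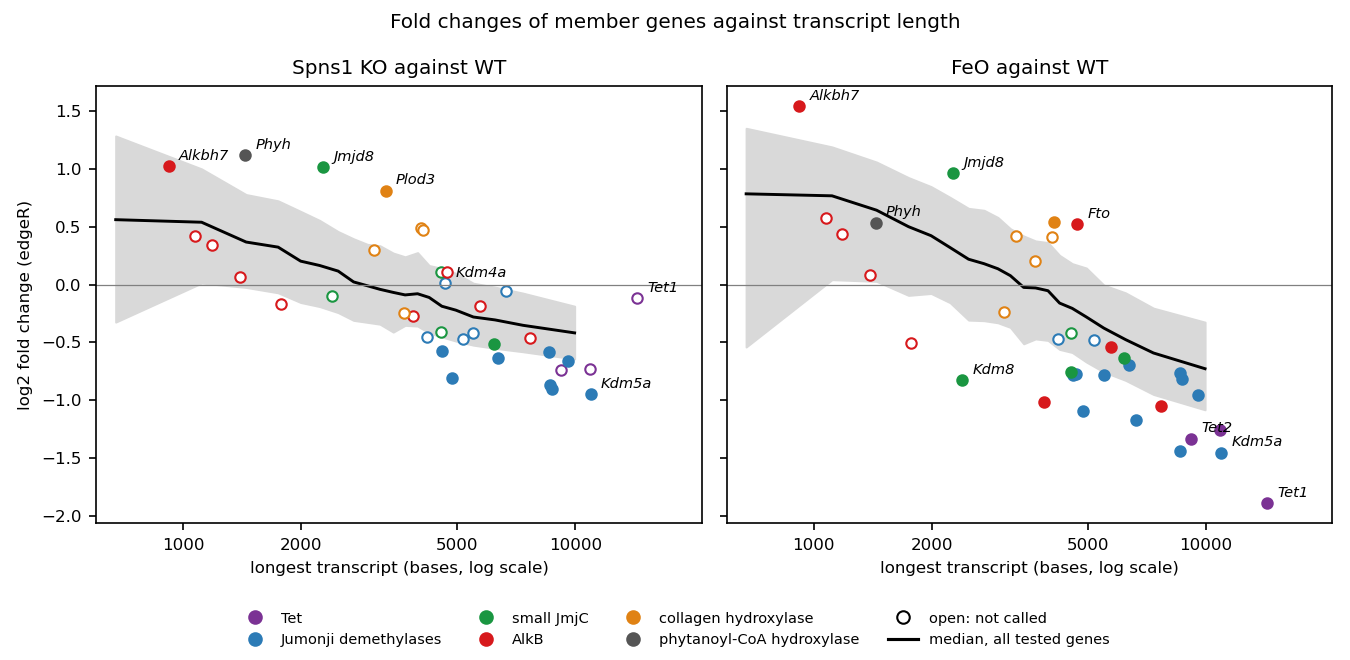
Log2 fold change of the 36 genes against the length of their longest transcript (log scale) in Spns1 KO (left) and FeO (right), coloured by family and filled where called. The line is the median and the grey band the quartiles of all tested genes in 20 classes of length, and the line runs downward with length in both models.

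When the smooth dependence of each library on transcript length and GC content was taken out, 11 genes were called lower and 5 higher in FeO, and 3 lower and 5 higher in Spns1 KO. Over all tested genes 12.9% were then lower and 20.8% higher in FeO, and 4.89% lower and 11% higher in Spns1 KO. Of the 25 calls made in FeO with the counts as deposited, 14 were kept, and of the 13 made in Spns1 KO, 6 were kept. The lower calls kept in FeO were Tet1, Tet3, Kdm3a, Jmjd1c, Kdm4a, Kdm4b, Kdm5a, Kdm8, Jmjd4 and Alkbh1, and Alkbh4 was added, at -0.84 (adjusted p = 0.0343). Those kept in Spns1 KO were Kdm4b, Kdm5a and Kdm5b. Jmjd8 was called higher in both models either way. What part of each change goes with transcript length was not tested further, and the value with the trend removed is given below wherever it ended or added a call.

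**Figure D3:**
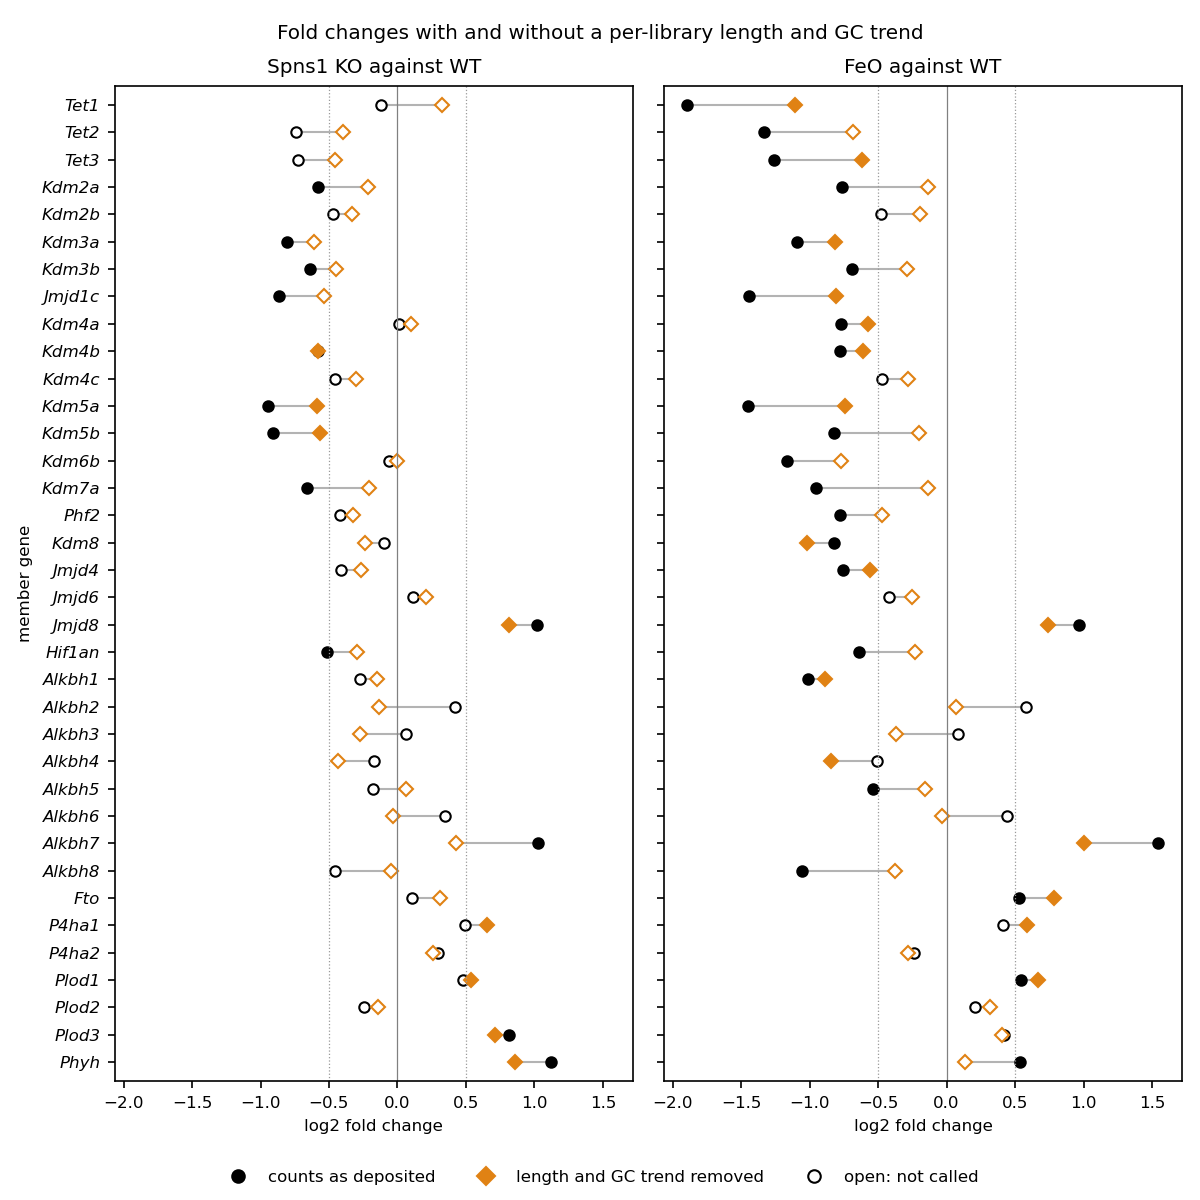
Log2 fold change of each gene with the counts as deposited (black circles) and with the length and GC trend of each library removed (orange diamonds), filled where called, for Spns1 KO (left) and FeO (right). Dotted lines mark 0.5 in either direction. Most lower values move toward 0, and for the 3 Tet genes in FeO they move from between -1.89 and -1.26 to between -1.11 and -0.62.

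The 3 Tet genes were called lower in FeO and none was called in Spns1 KO. Their longest transcripts ran from 9179 to 14369 bases. Of all 592 tested genes with transcripts over 9000 bases, 58.6% were called lower in FeO and 20.6% in Spns1 KO. Of all tested genes, 19.7% and 7.55% were. Tet1 (chromosome 10 from 62804570 to 62908996 of GRCm38), the founding member, had the lowest level per length of the 36 in WT. It stood at 11.6, 11.5, 14.6, 15.8 and 7.22 CPM in WT, at 2.03, 4.61, 3.35 and 3.07 CPM in FeO and at 9.49, 13.01, 7.45 and 14.7 CPM in libraries labelled Spns1 KO. All FeO libraries lay below all others, and Spns1 KO overlapped WT. Tet1 had a log2 fold change of -1.89 (standard error 0.29, edgeR adjusted p = 0.000462) in FeO and -0.12 (standard error 0.27, edgeR adjusted p = 0.772) in Spns1 KO. Tet2 (chromosome 3 from 133463679 to 133545139), a tumor suppressor of the blood lineage, stood at 285, 290.2, 342, 239 and 207 CPM in WT, 55.8, 204, 83.6 and 89.8 in FeO and 123, 136, 103 and 292 in Spns1 KO. FeO lay below WT throughout, and the library labelled Spns1 KO 4 lay within WT while the other 3 lay below it. Tet2 had a log2 fold change of -1.33 (standard error 0.36, edgeR adjusted p = 0.00844) in FeO, or -0.68 (adjusted p = 0.103) with the trend removed, and -0.74 (standard error 0.35, edgeR adjusted p = 0.142) in Spns1 KO. Tet3 (chromosome 6 from 83362373 to 83459084), known for oxidizing the paternal genome after fertilization, stood at 106, 115, 130.5, 114 and 97.2 CPM in WT, 31.6, 60.8, 36.1 and 59.4 in FeO and 56.98, 60.8, 43.5 and 110.4 in Spns1 KO. The pattern over libraries was that of Tet2. Tet3 had a log2 fold change of -1.26 (standard error 0.26, edgeR adjusted p = 0.0017) in FeO and -0.73 (standard error 0.26, edgeR adjusted p = 0.0504) in Spns1 KO. Without the library labelled Spns1 KO 4, Tet2 and Tet3 passed both limits there (-1.18 and -1.07, adjusted p = 0.0137 and 0.00233).

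**Figure D4:**
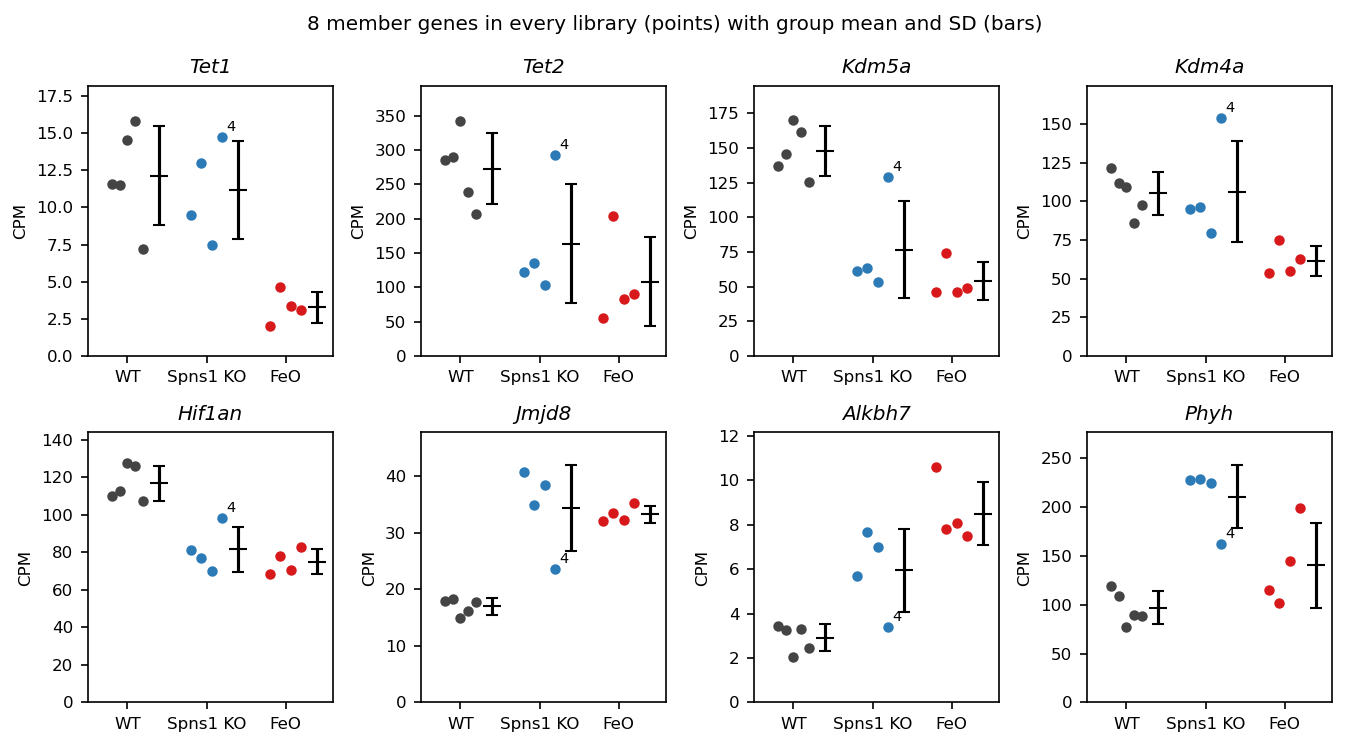
CPM of 8 genes in every library (points; the library labelled Spns1 KO 4 is marked 4) with the group mean and SD (bars). Tet1 is below all other libraries in FeO, Tet2 and Kdm5a are low in FeO and in 3 of the 4 libraries labelled Spns1 KO, and Jmjd8, Alkbh7 and Phyh have higher means in both models than in WT.

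Of the 13 Jumonji demethylases, 11 were called lower in FeO (19.7% of all tested genes and 51.2% of those over 6000 bases), 8 in Spns1 KO (7.55% and 19.3%) and none higher in either. The fit with the trend removed called 5 and 3 of them lower, beside 12.9% and 4.89% of all tested genes. All 13 had a negative log2 fold change in FeO (median -0.78) and 12 of 13 in Spns1 KO (median -0.58). Every FeO library lay below every WT library for 12 of the 13, as it did for 16.4% of all tested genes. Transcripts in this family ran from 4196 to 10944 bases, with a median of 6363. Both H3K4 demethylases were called in both models. Kdm5a (chromosome 6 from 120364124 to 120444574), which removes di- and trimethyl marks from H3K4, stood at 137, 145, 170.5, 162 and 125 CPM in WT, 60.9, 63.7, 53.4 and 129 in Spns1 KO libraries and 46.1, 74.3, 46.4 and 49.2 in FeO. All FeO libraries lay below WT, as did all but the library labelled Spns1 KO 4. Kdm5a had a log2 fold change of -1.45 (standard error 0.25, edgeR adjusted p = 0.000655) in FeO and -0.95 (standard error 0.24, edgeR adjusted p = 0.0123) in Spns1 KO, and the latter call ended without the library labelled Spns1 KO 3 (-0.81 there, the nearest to 0 of 13 leave-one-out values). Kdm5b (chromosome 1 from 134560171 to 134635285), its relative, stood at 55.3, 54.4, 63.8, 54.1 and 65.8 CPM in WT, 26.6, 28.97, 22.4 and 47.2 in Spns1 KO libraries and 29.9, 42.7, 26.3 and 33.9 in FeO, so that both models lay below WT without overlap. Kdm5b had a log2 fold change of -0.91 (standard error 0.20, edgeR adjusted p = 0.00607) in Spns1 KO and -0.82 (standard error 0.20, edgeR adjusted p = 0.00501) in FeO, and with the trend removed the FeO value was -0.20 (adjusted p = 0.36).

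All 3 demethylases grouped by H3K9 were called lower in both models. Kdm3a (chromosome 6 from 71588972 to 71632990), a known target of the hypoxia-inducible factors, stood at 109, 106, 116, 94.95 and 109 CPM in WT, 48.4, 53.7, 42.9 and 99.7 in Spns1 KO libraries and 37.9, 70.7, 43.03 and 48.9 in FeO. FeO lay below WT, whereas the library labelled Spns1 KO 4 lay inside the WT range. Kdm3a had a log2 fold change of -1.10 (standard error 0.24, edgeR adjusted p = 0.00228) in FeO and -0.81 (standard error 0.24, edgeR adjusted p = 0.0231) in Spns1 KO. Leaving out 1 library at a time ended the Spns1 KO call in 4 of 13 fits (without libraries labelled Spns1 KO 1, 2 or 3, or WT 3, values -0.76 to -0.67) and with the trend removed, at -0.61 (adjusted p = 0.066). Jmjd1c (chromosome 10 from 67096125 to 67256326), a large relative of Kdm3a, stood at 98.1, 99.5, 123, 110.2 and 84.6 CPM in WT, 47.8, 40.8, 38.9 and 98.2 in Spns1 KO libraries and 25.8, 56.2, 34.2 and 35.1 in FeO. Only the library labelled Spns1 KO 4 reached the WT range. Jmjd1c had a log2 fold change of -1.44 (standard error 0.28, edgeR adjusted p = 0.00116) in FeO and -0.87 (standard error 0.27, edgeR adjusted p = 0.0322) in Spns1 KO, where 6 of the 13 leave-one-out fits ended the call (without libraries labelled Spns1 KO 1, 2 or 3, or WT 2, 3 or 4, values -0.88 to -0.73) and with the trend removed, at -0.54 (adjusted p = 0.107). Kdm3b (chromosome 18 from 34777047 to 34838660), which shares 25.7% of its 31-base sequences with other genes, Gm26538 foremost, and is uncertain for that reason, stood at 119.8, 121, 138, 134 and 117 CPM in WT, 75.5, 71.2, 63.6 and 113 in Spns1 KO libraries and 81.8, 103, 55.8 and 70.6 in FeO. The groups did not overlap WT in either model. Kdm3b had a log2 fold change of -0.69 (standard error 0.19, edgeR adjusted p = 0.0101) in FeO and -0.64 (standard error 0.19, edgeR adjusted p = 0.0279) in Spns1 KO, and both calls ended with the trend removed, at -0.29 (adjusted p = 0.103) and -0.45 (adjusted p = 0.0375). The Spns1 KO call was also lost without libraries labelled Spns1 KO 1, 2 or 3, WT 3 or WT 4 (values -0.61 to -0.54).

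Among the demethylases of H3K36, and of H3K9 and H3K36, Kdm2a and Kdm4b were called lower in both models and Kdm4a in FeO. Kdm2a (chromosome 19 from 4314419 to 4398285), which binds unmethylated CpG islands, stood at 202, 202, 252, 254 and 211 CPM in WT, 150.3, 141, 122 and 186 in Spns1 KO libraries and 113, 158, 123 and 135 in FeO, with no overlap between WT and either model. Kdm2a had a log2 fold change of -0.76 (standard error 0.16, edgeR adjusted p = 0.00203) in FeO and -0.58 (standard error 0.16, edgeR adjusted p = 0.0186) in Spns1 KO. Both calls ended with the trend removed, at -0.14 (adjusted p = 0.357) and -0.21 (adjusted p = 0.213), and that of Spns1 KO also without libraries labelled Spns1 KO 1, 2 or 3, or WT 3 (values -0.58 to -0.49). Kdm4b (chromosome 17 from 56326062 to 56402870) stood at 62.6, 60.1, 61.4, 52.4 and 52.7 CPM in WT, 35.5, 39.03, 28.9 and 51.4 in Spns1 KO libraries and 34.1, 45.5, 26.3 and 28.8 in FeO, again without overlap with WT. Kdm4b had a log2 fold change of -0.78 (standard error 0.18, edgeR adjusted p = 0.00388) in FeO and -0.58 (standard error 0.18, edgeR adjusted p = 0.0334) in Spns1 KO, where 8 of the 13 leave-one-out fits lost the call (without any 1 of libraries labelled Spns1 KO 1, 2 and 3 or of the 5 WT libraries, values -0.59 to -0.46). Kdm4a (chromosome 4 from 118136957 to 118180043) stood at 122, 112, 109, 85.9 and 97.7 CPM in WT, 95.05, 96.5, 79.7 and 154 in Spns1 KO libraries and 53.7, 74.8, 54.8 and 62.9 in FeO. FeO lay below both other groups, which overlapped, with the library labelled Spns1 KO 4 highest of all 13. Kdm4a had a log2 fold change of -0.77 (standard error 0.19, edgeR adjusted p = 0.00482) in FeO and 0.01 (standard error 0.19, edgeR adjusted p = 0.965) in Spns1 KO, a value whose sign was not stable. Kdm2b and Kdm4c did not pass the fold limit, with -0.48 and -0.47 in FeO (edgeR adjusted p = 0.0233 and 0.00564) and -0.47 and -0.46 in Spns1 KO (edgeR adjusted p = 0.0422 and 0.0133).

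The remaining demethylases act on H3K27 (Kdm6b) or carry a PHD finger that reads H3K4 methylation (Kdm7a and Phf2). Kdm6b (chromosome 11 from 69398508 to 69413675), an inducible gene of inflammatory responses, stood at 109.5, 116, 99.6, 58.7 and 98.2 CPM in WT, 65.1, 67.2, 52.3 and 186 in Spns1 KO libraries and 25.7, 62.97, 21.02 and 61.8 in FeO. WT 4 lay within the FeO range, and the library labelled Spns1 KO 4 lay above every WT library. Kdm6b had a log2 fold change of -1.17 (standard error 0.40, edgeR adjusted p = 0.0266) in FeO and -0.06 (standard error 0.39, edgeR adjusted p = 0.924) in Spns1 KO. The FeO call ended without WT 2, FeO 1 or FeO 3 (values -1.10 to -0.94) and with the trend removed, at -0.77 (adjusted p = 0.0778). Kdm7a (chromosome 6 from 39136623 to 39206789) stood at 107, 111, 145, 156 and 104 CPM in WT, 71.8, 66.3, 66.5 and 110.1 in Spns1 KO libraries and 61.7, 64.5, 63.6 and 67.6 in FeO, where the FeO libraries were close together and below all WT libraries. Kdm7a had a log2 fold change of -0.95 (standard error 0.18, edgeR adjusted p = 0.00107) in FeO and -0.66 (standard error 0.18, edgeR adjusted p = 0.0163) in Spns1 KO. With the trend removed the values were -0.14 (adjusted p = 0.29) and -0.21 (adjusted p = 0.163), past neither limit, and the Spns1 KO call ended without libraries labelled Spns1 KO 1, 2 or 3, or WT 3 (values -0.62 to -0.58). Phf2 (chromosome 13 from 48801750 to 48871119) stood at 101, 104, 108, 91.6 and 83.6 CPM in WT, 59.5, 64.01, 43.5 and 60.6 in FeO and 76.3, 65.5, 60.6 and 89.7 in Spns1 KO, with FeO below WT throughout and Spns1 KO overlapping WT. Phf2 had a log2 fold change of -0.78 (standard error 0.16, edgeR adjusted p = 0.00154) in FeO, or -0.47 (adjusted p = 0.00547) with the trend removed, and -0.42 (standard error 0.16, edgeR adjusted p = 0.0634) in Spns1 KO.

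The 5 small JmjC genes moved in both directions, with 1 called higher in each model, 3 lower in FeO and 1 lower in Spns1 KO. Shares over all tested genes were 22.4% higher and 19.7% lower in FeO, and 14.0% and 7.55% in Spns1 KO. Jmjd8 (chromosome 17 from 25828867 to 25831843), whose product resides in the endoplasmic reticulum, stood at 18.00, 18.4, 14.8, 16.2 and 17.7 CPM in WT, 40.7, 34.97, 38.5 and 23.6 in Spns1 KO libraries and 32.00, 33.5, 32.3 and 35.2 in FeO. Every library of either model lay above every WT library, with the library labelled Spns1 KO 4 closest to WT. Jmjd8 had a log2 fold change of 1.02 (standard error 0.15, edgeR adjusted p = 0.000621) in Spns1 KO and 0.97 (standard error 0.15, edgeR adjusted p = 0.000532) in FeO, and neither call was lost in any alternative fit. Of its 31-base sequences 33.9% also occur in Stub1, which overlaps it on the opposite strand, and whether reads were counted by strand is not given in the sources used here, so its level is uncertain. Hif1an (chromosome 19 from 44562850 to 44576274) codes for FIH, the asparaginyl hydroxylase that blocks coactivator binding by hypoxia-inducible factors. It stood at 110.0, 113, 128, 126 and 108 CPM in WT, 81.5, 76.9, 70.3 and 98.4 in Spns1 KO libraries and 68.4, 78.3, 70.7 and 82.9 in FeO, without overlap between WT and either model. Hif1an had a log2 fold change of -0.64 (standard error 0.14, edgeR adjusted p = 0.002) in FeO and -0.52 (standard error 0.14, edgeR adjusted p = 0.0139) in Spns1 KO. With the trend removed both calls ended, at -0.23 (adjusted p = 0.0832) and -0.30 (adjusted p = 0.0567), and 7 of the 13 leave-one-out fits ended the Spns1 KO call, which was close to the fold limit (without libraries labelled Spns1 KO 2 or 3, WT 3 or 4, or FeO 1, 2 or 4, values -0.49 to -0.45).

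Jmjd4 (chromosome 11 from 59450045 to 59458567), a lysyl hydroxylase of the translation termination factor eRF1, stood at 18.6, 18.7, 23.7, 29.3 and 18.5 CPM in WT, 12.4, 15.99, 10.3 and 12.8 in FeO and 18.8, 14.6, 11.9 and 20.1 in Spns1 KO. FeO lay below WT, and Spns1 KO overlapped it. Jmjd4 had a log2 fold change of -0.76 (standard error 0.20, edgeR adjusted p = 0.00788) in FeO and -0.41 (standard error 0.20, edgeR adjusted p = 0.149) in Spns1 KO. Kdm8 (chromosome 7 from 125444676 to 125462269), which despite its name is best known as a hydroxylase, was scarce, with 4.17, 4.04, 3.31, 2.15 and 4.48 CPM in WT, 1.80, 3.34, 1.26 and 1.76 in FeO and 3.31, 3.33, 2.97 and 3.94 in Spns1 KO. WT 3 and WT 4 lay within the FeO range. Kdm8 had a log2 fold change of -0.82 (standard error 0.29, edgeR adjusted p = 0.0294) in FeO and -0.10 (standard error 0.28, edgeR adjusted p = 0.817) in Spns1 KO, and 6 of the 13 leave-one-out fits ended the FeO call (without WT 1, 2 or 5, or FeO 1, 3 or 4, values -0.79 to -0.65). Jmjd6, a lysyl hydroxylase of splicing factors, was called in neither model, with -0.42 (standard error 0.25, edgeR adjusted p = 0.182) in FeO and 0.11 (standard error 0.25, edgeR adjusted p = 0.772) in Spns1 KO.

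The 9 AlkB genes were divided as well, with 2 called higher and 3 lower in FeO and 1 higher in Spns1 KO. Over all tested genes, 22.4% were called higher and 19.7% lower in FeO, and 14.0% and 7.55% in Spns1 KO. Alkbh7 (chromosome 17 from 56997339 to 56999322), a mitochondrial protein required for programmed necrosis after alkylation damage and the shortest transcript of the 36, had 3.43, 3.27, 2.05, 3.32 and 2.47 CPM in WT, 5.69, 7.66, 7.01 and 3.40 in Spns1 KO libraries and 10.6, 7.82, 8.09 and 7.50 in FeO. FeO lay above WT throughout, and 3 of the 4 libraries labelled Spns1 KO did so. Alkbh7 had a log2 fold change of 1.55 (standard error 0.24, edgeR adjusted p = 0.000506) in FeO and 1.03 (standard error 0.24, edgeR adjusted p = 0.00807) in Spns1 KO, where it was 0.43 (adjusted p = 0.211) with the trend removed. Alkbh8 (chromosome 9 from 3335140 to 3391154), which completes the wobble uridine modification of certain tRNAs, stood at 57.5, 59.4, 67.6, 74.3 and 50.4 CPM in WT, 44.2, 46.1, 40.2 and 49.3 in Spns1 KO libraries and 24.1, 31.9, 32.1 and 31.1 in FeO, and the 3 groups did not overlap. Alkbh8 had a log2 fold change of -1.05 (standard error 0.15, edgeR adjusted p = 0.000393) in FeO, or -0.38 (adjusted p = 0.0141) with the trend removed, and -0.46 (standard error 0.14, edgeR adjusted p = 0.0306) in Spns1 KO, short of the fold limit. Alkbh1 (chromosome 12 from 87425840 to 87444017), a demethylase of tRNA and DNA, stood at 28.6, 28.4, 26.5, 15.3 and 27.9 CPM in WT, 7.80, 16.8, 8.48 and 17.1 in FeO and 14.5, 17.9, 15.5 and 36.2 in Spns1 KO. WT 4 lay within the FeO range, and Spns1 KO overlapped WT. Alkbh1 had a log2 fold change of -1.01 (standard error 0.32, edgeR adjusted p = 0.0174) in FeO, a call lost without FeO 1 or FeO 3 (values -0.87 to -0.83), and -0.27 (standard error 0.31, edgeR adjusted p = 0.545) in Spns1 KO.

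The 2 AlkB genes that remove the N6-methyl mark of adenosine in RNA, Alkbh5 and Fto, were called in FeO in opposite directions. Alkbh5 (chromosome 11 from 60536381 to 60558512) was among the most abundant of the 36 per length, with 302, 304, 358, 399.6 and 237 CPM in WT, 242, 189, 256 and 195 in FeO and 318, 269, 300.1 and 242 in Spns1 KO. WT 5 lay within the FeO range. Alkbh5 had a log2 fold change of -0.54 (standard error 0.18, edgeR adjusted p = 0.0223) in FeO and -0.18 (standard error 0.18, edgeR adjusted p = 0.47) in Spns1 KO. The FeO call ended without WT 3, WT 4, FeO 2 or FeO 4 (values -0.48 to -0.43) and with the trend removed, at -0.16 (adjusted p = 0.488). Fto (chromosome 8 from 91313525 to 91668439) stood at 52.2, 48.6, 51.5, 66.5 and 48.6 CPM in WT, 98.8, 69.1, 83.3 and 56.8 in FeO and 71.1, 56.6, 64.1 and 38.5 in Spns1 KO, and FeO 4 lay within the WT range. Fto had a log2 fold change of 0.53 (standard error 0.19, edgeR adjusted p = 0.0361) in FeO and 0.11 (standard error 0.19, edgeR adjusted p = 0.71) in Spns1 KO, and 6 of the 13 leave-one-out fits ended the FeO call (without WT 1, 2, 3 or 5, or FeO 1 or 3, values 0.40 to 0.53). Alkbh2 and Alkbh3, which repair alkylated DNA bases, Alkbh4 and Alkbh6 were called in neither model, with log2 fold changes of -0.51 to 0.58 in FeO and -0.17 to 0.42 in Spns1 KO. Alkbh2 shares 26.4% of its 31-base sequences with Usp30.

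Of the 5 collagen hydroxylases, 4 had a log2 fold change above 0 in each model and 1 was called higher in each, where 22.4% of all tested genes were in FeO and 14.0% in Spns1 KO. After removal of the trend, 2 were called higher in FeO and 3 in Spns1 KO, where 20.8% and 11% of all tested genes were. Plod3 (chromosome 5 from 136987019 to 136996648), a lysyl hydroxylase that also adds sugars to collagen, stood at 17.9, 20.1, 18.9, 17.9 and 17.9 CPM in WT, 37.4, 36.8, 32.1 and 24.3 in Spns1 KO libraries and 31.2, 20.8, 21.4 and 26.1 in FeO. Both models lay above WT without overlap. Plod3 had a log2 fold change of 0.81 (standard error 0.16, edgeR adjusted p = 0.0028) in Spns1 KO and 0.42 (standard error 0.16, edgeR adjusted p = 0.0425) in FeO, the latter short of the fold limit, and 10.2% of its 31-base sequences also occur in Znhit1. Plod1 (chromosome 4 from 147909753 to 147936767), a lysyl hydroxylase of collagen helices, stood at 21.5, 21.6, 23.6, 25.01 and 18.5 CPM in WT, 34.7, 29.7, 32.4 and 25.7 in Spns1 KO libraries and 44.2, 27.03, 31.2 and 26.2 in FeO, again above WT throughout in both models. Plod1 had a log2 fold change of 0.55 (standard error 0.17, edgeR adjusted p = 0.0164) in FeO, a call lost without FeO 1 (0.37 there), and 0.48 (standard error 0.17, edgeR adjusted p = 0.0514) in Spns1 KO, where it was called with the trend removed, at 0.54 (adjusted p = 0.0461). The prolyl hydroxylase subunits P4ha1 and P4ha2 were called in neither, with 0.49 (standard error 0.18, edgeR adjusted p = 0.0544) and 0.30 (standard error 0.15, edgeR adjusted p = 0.152) in Spns1 KO and 0.41 (standard error 0.18, edgeR adjusted p = 0.0686) and -0.24 (standard error 0.15, edgeR adjusted p = 0.198) in FeO. P4ha1 was called higher in both with the trend removed, at 0.65 (adjusted p = 0.0205) in Spns1 KO and 0.59 (adjusted p = 0.0185) in FeO. Plod2, which hydroxylates collagen telopeptides, had -0.24 (standard error 0.18, edgeR adjusted p = 0.334) in Spns1 KO and 0.21 (standard error 0.18, edgeR adjusted p = 0.354) in FeO. The summed level of 6 fibroblast markers was 157.9 to 202.6 CPM in Spns1 KO, 93.2 to 137.6 in WT and 72.8 to 160.3 in FeO. Of these markers 3 of 6 were called higher in Spns1 KO and none in FeO, and their part in these values was not tested.

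Phyh (chromosome 2 from 4919019 to 4938730) had the highest level per length of the 36 in WT, at 67.3 CPM per kilobase of its longest transcript, ahead of Alkbh5 at 55.9 and Tet2 at 29.7. It stood at 119, 109.5, 77.4, 89.2 and 88.99 CPM in WT, 228, 228, 225 and 162 in Spns1 KO libraries and 116, 102, 145 and 199.6 in FeO. All libraries labelled Spns1 KO lay above every WT library, and FeO overlapped WT. Phyh had a log2 fold change of 1.12 (standard error 0.20, edgeR adjusted p = 0.0016) in Spns1 KO, a call lost in no alternative fit, and 0.54 (standard error 0.20, edgeR adjusted p = 0.0405) in FeO. In 6 of the 13 leave-one-out fits the FeO call ended (without the library labelled Spns1 KO 2, WT 3, 4 or 5, or FeO 3 or 4, values 0.34 to 0.54) and with the trend removed, at 0.13 (adjusted p = 0.534). The summed level of the 10 proximal tubule markers was higher in every library labelled Spns1 KO than in every WT library. Of the 10, 8 were called higher in Spns1 KO (14.0% of all tested genes) and none lower (7.55%). In FeO, 2 were called higher (22.4%) and 1 lower (19.7%), and 5 of the 10 had a log2 fold change below 0. The part of these markers in the level of Phyh was not tested.

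Set against each other directly, the models differed for 4 of the 36 genes, all higher in Spns1 KO than in FeO, where 6.76% of all tested genes were called higher and 8.10% lower. Tet1 differed most among the 4, by 1.77 (standard error 0.30, edgeR adjusted p = 0.00326) on the log2 scale. That call was lost in no alternative fit. Kdm4a differed by 0.79 (standard error 0.20, edgeR adjusted p = 0.0175) and Alkbh8 by 0.59 (standard error 0.15, edgeR adjusted p = 0.0176), and both calls were lost without FeO 1 (0.73 and 0.51 there, edgeR adjusted p = 0.0558 and 0.0586). Alkbh8 also lost its call with the trend removed, at 0.33 (adjusted p = 0.0541). P4ha2 stood at 43.5, 43.2, 39.01 and 43.4 CPM in Spns1 KO and 26.1, 28.6, 36.7 and 25.5 in FeO, with 39.1, 37.5, 34.9, 26.5 and 34.1 in WT, and differed by 0.53 (standard error 0.16, edgeR adjusted p = 0.0326). That call ended without libraries labelled Spns1 KO 1, 2 or 4, FeO 1 or FeO 4 (values 0.47 to 0.52). With the 2 models fitted without WT, Tet1 alone was called. Kdm6b had a larger difference than Kdm4a, at 1.11 (standard error 0.41, edgeR adjusted p = 0.0791), and Phyh had 0.59 (standard error 0.21, edgeR adjusted p = 0.0737), neither past the limits. Phyh was called with the trend removed, at 0.72 (adjusted p = 0.0132). For Tet2 and Tet3, which were called in FeO only, the difference between models was 0.59 (standard error 0.37, edgeR adjusted p = 0.276) and 0.53 (standard error 0.27, edgeR adjusted p = 0.179), so a difference between the models is not shown for them. The median difference over the 36 genes, whose median transcript was 4620 bases, was 0.31, beside 0.03 over all tested genes. Over all tested genes it was -0.06 up to 1500 bases, -0.10 from there to 3000 and 0.005 to 4500. It was 0.11 from 4500 to 6000 bases, 0.25 from 6000 to 9000 and 0.37 above 9000.

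Genes that place or read the marks these enzymes remove were counted from lists, which were chosen with earlier results of these data known. Of 23 histone methyltransferases, 17 were called lower and none higher in FeO (median log2 fold change -0.89), and 4 lower and 1 higher in Spns1 KO (median -0.43), where 19.7% of all tested genes were lower in FeO and 7.55% in Spns1 KO. With the trend removed, 9 were called lower in FeO and 1 in Spns1 KO. In that fit 12.9% of all tested genes were lower and 20.8% higher in FeO, and 4.89% and 11% in Spns1 KO. The largest changes in FeO were in Ash1l, which methylates H3K36 (-1.41), and in the H3K4 methyltransferase family genes Kmt2e (-1.40), Kmt2b (-1.38) and Kmt2c (-1.37). In Spns1 KO, Kmt2c (-0.74), Setd2 (-0.56) and Suv39h1 (-0.52) were lower and Kmt5a (0.67) higher. Of 12 writers and readers of N6-methyladenosine, 8 were called lower in FeO and 4 in Spns1 KO, and none higher, but with the trend removed 1 was called lower in FeO and none in Spns1 KO. Among them were the reader Ythdc2 (-1.32 in FeO and -0.67 in Spns1 KO) and the writer subunit Virma (-0.78 and -0.58). Higher calls made up 22.4% of all tested genes in FeO and 14.0% in Spns1 KO. Of 10 DNA methylation genes, 5 were called lower and 2 higher in FeO, and 4 lower and 2 higher in Spns1 KO. These became 3 lower and 1 higher in each with the trend removed. The methyltransferase Dnmt3a was at -1.12 in FeO, whereas Mbd3 was higher in both (0.91 and 1.11). The 2 lysine demethylases that use FAD in place of iron, Kdm1a and Kdm1b, gave no call in FeO and 1 lower call in Spns1 KO (Kdm1a, -0.57). With the trend removed, 1 of the 2 was called lower in each model.

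A list of 18 genes held enzymes that make or use 2-oxoglutarate and enzymes that handle inhibitors of these oxygenases, such as succinate and fumarate. Of the 18, 8 were called higher and 2 lower in FeO, and 9 higher and 1 lower in Spns1 KO, with median log2 fold changes of 0.50 and 0.61, where 22.4% of all tested genes were higher in FeO and 14.0% in Spns1 KO. Removal of the trend gave 3 called higher and 1 lower in FeO, beside 20.8% and 12.9% of all tested genes in that fit. In Spns1 KO it gave 5 higher and 1 lower, beside 11% and 4.89%. Succinate dehydrogenase subunits Sdhc (1.05 in FeO and 1.18 in Spns1 KO), Sdhb (0.90 in FeO) and Sdha (1.20 in Spns1 KO) were among the higher, as was the isocitrate dehydrogenase Idh2 (0.98 in FeO). Of 24 tested oxygenases of the superfamily outside the 36, 4 were called higher and 4 lower in FeO, and 4 higher and 2 lower in Spns1 KO. In FeO these were 16.7% higher and 16.7% lower, beside 22.4% and 19.7% of all tested genes. In Spns1 KO they were 16.7% and 8.33%, beside 14.0% and 7.55%. Egln3, a prolyl hydroxylase of hypoxia-inducible factors, was higher in FeO (1.05). Kdm6a, the X-linked H3K27 demethylase, was lower in both (-1.01 and -0.94), and P4ha3 was lower in FeO (-2.39). Of 10 collagen processing genes, 5 were called higher and 1 lower in each model. Higher calls made up 22.4% of all tested genes in FeO and 14.0% in Spns1 KO. Crtap (1.49 in FeO and 0.83 in Spns1 KO) and the collagen chaperone Serpinh1 (1.02 and 0.92) were among the higher. With the trend removed, 5 and 4 were called higher in FeO and Spns1 KO, where 20.8% and 11% of all tested genes were. Of 4 partners of AlkB proteins, Ascc1 (1.33) and Trmt112 (1.16), the latter needed for methylation of tRNA, were called higher in FeO (22.4% of all tested genes) and none in Spns1 KO (14.0%). All values in these lists are log2 fold changes that passed both limits of the edgeR test with the counts as deposited.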

How the data were processed

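The authors deposited 1 table of estimated counts per gene symbol for 13 libraries of 4-thiouracil-tagged kidney RNA, in whole numbers and without normalization. Its name and the submitters' processing notes point to kallisto 0.44.0 after bcl2fastq 2.19, whereas the study's methods describe STAR, HTSeq and mm10. Which made these counts is not settled here, nor whether strand was used. The counts were analysed in R 4.3.3 with edgeR 4.0.16 (TMM factors, filterByExpr, quasi-likelihood test, all 13 libraries in a single fit, 3 contrasts), with Benjamini-Hochberg adjustment over the 16468 genes tested. Calls needed an adjusted p under 0.05 and a log2 fold change beyond 0.5, the limits used in the study, which ran DESeq2. Standard errors were derived from the F statistic. Alternatives used DESeq2 1.42.0, limma-voom 3.58.1, other scalings and filters, the 2 groups alone, a replicate block, a test against 0.5, each library left out, and a per-library length and GC trend (mgcv 1.9.3, GENCODE M21 longest transcripts, known for 16187 tested genes). The script was tested on simulated data.

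Every one of the 36 genes has its fold changes given, singly or as a range. Those past both limits have their value in every library. At most 4 called genes are named per other list and comparison, those with the largest change. The genes and lists were chosen with earlier results of these data known. The labels do not state that libraries of a group came from separate mice, and p-values measure the spread between these libraries. Total counts were 31809135 to 71296474 in Spns1 KO, 23068023 to 37362311 in WT and 25986133 to 29981814 in FeO.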

Additional observations from a re-analysis of the deposited data

Results flagged for a closer look

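Gaps within a group were compared with Dixon's critical value in 108 sets of 1 gene and 1 group, and 11 passed, where chance alone flags about 1 in 20. Of these 11, 6 were the library labelled Spns1 KO 4. It was the highest of its group for Jmjd1c (gap 0.85 of the range), Kdm5a (0.863), Kdm6b (0.888), Kdm7a (0.876) and Alkbh1 (0.841) and the lowest for Phyh (0.944). Within FeO, FeO 2 was far above the others for Kdm5a (0.892) and FeO 1 far below for Alkbh8 (0.876). In WT, WT 4 was far below the others for Alkbh1 (0.844) and far above for Fto (0.8). The library labelled Spns1 KO 3 was far below for P4ha2 (0.923), although its 4 values there ran only from 39.0 to 43.5 CPM.

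The effect against WT differed between the models by the direct edgeR test for Tet1 (log2 difference 1.77, Spns1 KO above FeO), Kdm4a (0.79), Alkbh8 (0.59) and P4ha2 (0.53).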

How the results depend on the processing

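DESeq2, limma-voom and RLE factors kept all 13 calls in Spns1 KO, all 25 in FeO and all 4 between the models. Lower calls in Spns1 KO numbered 14 with library totals, 3 with the length and GC trend removed and 0 against a fold limit of 0.5 with glmTreat (9 as reported), and 1 to 14 with 1 library left out. Higher calls in Spns1 KO were 2 with glmTreat (4 as reported). In FeO, higher calls were 2 with library totals, 2 with the replicate block and 2 with glmTreat (5 as reported), and 3 to 7 with 1 library left out. Lower calls in FeO were 11 with the trend removed and 8 with glmTreat (20 as reported). Between the models, higher calls were 1 with only those groups fitted and 1 with glmTreat (4 as reported), and 1 to 7 with 1 library left out, and lower calls ran from 0 to 1. With 4 or 5 libraries per group, a test against 0.5 calls only changes shown to exceed that limit, and why calls were lost was not tested.

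Some uncalled Spns1 KO values changed sign. With library totals Fto was -0.024, Jmjd6 -0.014 and Kdm4a -0.12, and Kdm4a was -0.022 with limma-voom. With the trend removed Alkbh5 was 0.060, Kdm6b 0.0003 and Tet1 0.32, whereas Alkbh2 was -0.14, Alkbh3 -0.27 and Alkbh6 -0.032. In FeO, Alkbh3 and Alkbh6 were then -0.37 and -0.035, against 0.08 and 0.44 as deposited. With 1 library left out the Spns1 KO value of Fto ran from -0.011 to 0.26, Jmjd6 from -0.033 to 0.22, Kdm4a from -0.22 to 0.13, Kdm6b from -0.65 to 0.14, Kdm8 from -0.22 to 0.0087 and Tet1 from -0.28 to 0.033.

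Whether the replicate numbers pair the libraries is not known. The study describes littermate controls and tamoxifen given to mouse pairs in parallel. After group means were subtracted from log2 CPM, same-numbered libraries of different groups correlated from -0.296 to 0.256. By this measure 3 of 13 libraries correlated best with their own number. With 4 or 5 libraries per group, these values cannot exclude a pairing. With the replicate block (numbers 1 to 4), which leaves WT 5 out, 8 lower and 4 higher calls were made in Spns1 KO, 20 and 2 in FeO and 0 and 3 between the models, and Kdm4a was -0.023 and Kdm8 0.039 in Spns1 KO.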
